A study of Homo sapiens with 3 samples.

Results

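The mitochondrial fatty acid oxidation enzymes described here were 10 genes named by their function: CPT1A, CPT1B, SLC25A20, CPT2, ACADVL, ACADM, ACADS, HADHA, HADHB and HADH. Each was found once by its symbol among the 29960 genes of the deposited table. The cells were 5637, a human bladder cancer line, and a gemcitabine-resistant derivative of the same line. The parental cells carry the genotype label WT, the derivative is labelled Gemcitabine Resistant, and both are labelled Untreated at harvest. All were grown in RPMI medium with serum. The study's methods describe single-cell clones of the 2 lines, so a library stands for a clone of 1 cell line and not for a separate patient or animal. Poly(A) RNA was sequenced, and 1 parental and 2 resistant libraries were tied to a sample by the labels. A second readout came from the authors' mean of each group, which has no error here and which also covers clones that were not analysed singly.

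Long-chain fatty acids enter the mitochondrial matrix through the carnitine shuttle. A CPT1 enzyme on the outer membrane joins the acyl chain to carnitine, the carrier SLC25A20 moves the acylcarnitine across the inner membrane, and CPT2 gives back the acyl-CoA. Inside, a cycle of dehydrogenation, hydration, a second dehydrogenation and thiolysis shortens the chain, with enzymes that differ in the chain length they accept. The acetyl-CoA released feeds the citric acid cycle, and the electrons reach the respiratory chain.

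All 10 genes passed the count filter, a sum of at least 30 reads over the 3 libraries. None was called different between resistant and parental cells by edgeR's quasi-likelihood test at an adjusted p under 0.05, and none had an unadjusted p under 0.05. DESeq2 called none of them either. Over all 14846 genes tested the adjusted threshold was passed by 78 genes, 0.525%, of which 20 were higher and 58 lower in resistant cells. The unadjusted threshold was passed by 9.62% of genes. Fold changes below are resistant over parental on the log2 scale, with the standard error (SE) and the 95% interval of this fit. With 1 parental library the spread came from the 2 resistant libraries and was assumed to hold for the parental one. The fit had 1 residual degree of freedom, so it leaned on the spread shared across genes. A p-value here sets the difference between the groups against that spread, to which the parental library adds nothing of its own. One that misses the threshold does not show that the levels were alike.

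The libraries held 14475531 reads in parental 1, 15836788 in resistant 1 and 17461941 in resistant 2, so that 3 reads corresponded to between 0.173 and 0.213 CPM, the count scaled to a common library size. All 8 epithelial marker genes matched the label of the cells, each above 1 FPKM (fragments per kilobase of transcript, scaled to library size) in every library, with a summed level of 4319 to 5387 FPKM. Markers of other cells summed to 0.323 to 0.770 FPKM for 5 immune genes, 0.0469 to 0.301 for 3 endothelial genes, 0.344 to 0.850 for 5 muscle genes and 0.0855 to 0.207 for 3 adipocyte genes. The 4 fibroblast markers summed to 23.0 to 26.0 FPKM, with COL1A1 reaching 16.3 FPKM and LUM at 0 in every library.

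The enzymes differed far more from one another than any of them did between libraries. On the per-length scale, mean levels over the 3 libraries ran from 123 FPKM for ACADVL through 62.3 for HADHA, 31.1 for HADH, 19.6 for HADHB, 17.1 for ACADM, 4.43 for CPT2, 3.97 for SLC25A20, 1.99 for CPT1A and 1.95 for ACADS to 0.723 for CPT1B. Neighbours in this order had separate ranges over the 3 libraries except for CPT2 with SLC25A20 and CPT1A with ACADS. The matrix enzymes other than ACADS thus stood above the 4 carnitine shuttle genes among the 10. TPM gave the same order of all 10, but it only rescales the FPKM of each library by a single factor. It is therefore no separate check, and both measures rest on the gene lengths of the deposited table.

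**Figure D1:**
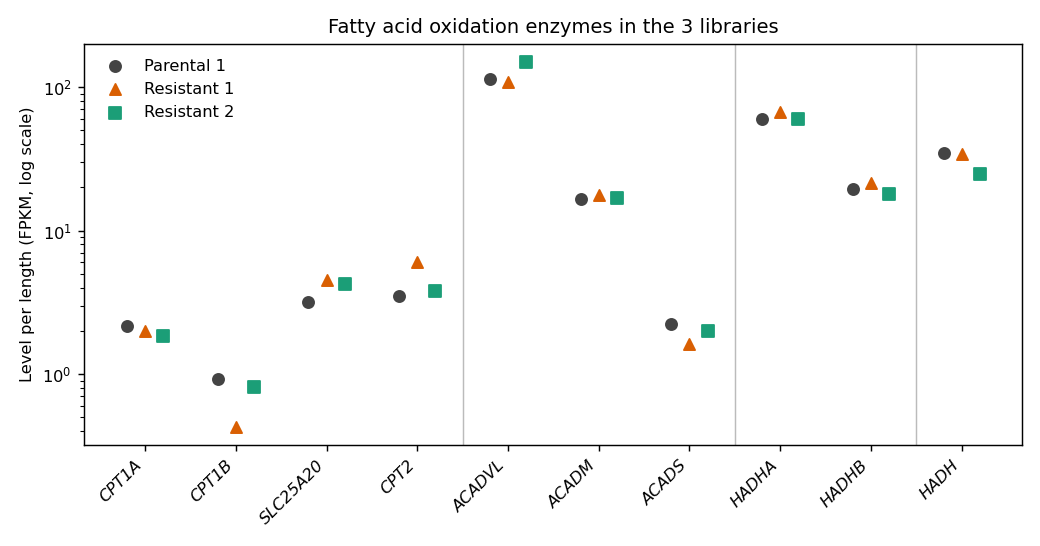
The level of each enzyme (FPKM, log scale, vertical axis) in parental 1, resistant 1 and resistant 2, with grey lines between the carnitine shuttle, the acyl-CoA dehydrogenases, the trifunctional protein and HADH. ACADVL sits between 108 and 149 FPKM in all 3 libraries, while CPT1B stays under 1 FPKM.

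Among the enzymes described here, the outer-membrane step was represented by CPT1A and CPT1B, each at a low level. A further CPT1 gene, CPT1C, belongs to the activation and carnitine uptake list below. It had 298 reads in parental 1, 439 in resistant 1 and 512 in resistant 2. Per length it stood at 6.98, 9.40 and 9.94 FPKM, above CPT1A and CPT1B in every library. CPT1A, the liver-type isoform and the usual rate-controlling entry point (ENSG00000110090, chr11:68522088-68611878 in hg19, reverse strand), had 163 reads in parental 1, 165 in resistant 1 and 168 in resistant 2, or 11.6, 10.1 and 9.67 CPM. Both resistant values lay below the parental one, by less than the error of the fit, with a log2 fold change of -0.23 ± 0.42 (SE, 95% interval -1.20 to 0.75, edgeR adjusted p = 0.947). CPT1B, the muscle-type isoform (ENSG00000205560, chr22:51007290-51017899, reverse strand), had 39, 20 and 42 reads in the same order, or 2.76, 1.22 and 2.42 CPM. Resistant 1 stood apart from both other libraries, and the fit gave -0.60 ± 0.66 (95% interval -2.11 to 0.91, edgeR adjusted p = 0.888). The ratio of CPT1A to CPT1B per length was 2.34 in parental 1, 4.62 in resistant 1 and 2.24 in resistant 2, so the liver-type transcript was the higher one in each library. CPT1B shares 522 bases of its span with CHKB on the same strand, a choline kinase gene with 9, 9 and 24 reads.

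Among the enzymes described here, those of the inner-membrane steps were the only ones with both resistant libraries above the parental one. This was not particular to them: of the 44 tested genes around the cycle, described below, 20 were higher in both and 16 lower in both. SLC25A20, the carnitine-acylcarnitine carrier (ENSG00000178537, chr3:48894369-48936426, reverse strand), had 86 reads in parental 1, 134 in resistant 1 and 139 in resistant 2, or 6.10, 8.20 and 8.0 CPM. The 2 resistant libraries were close to each other, and the log2 fold change of 0.41 ± 0.47 (95% interval -0.67 to 1.49, edgeR adjusted p = 0.896) did not pass. CPT2, the matrix-facing acyltransferase (ENSG00000157184, chr1:53662101-53679869, forward strand), had 157, 294 and 204 reads, or 11.1, 18 and 11.7 CPM. Its rise lay almost wholly in resistant 1, which was above parental 1 by 0.69 on the log2 scale (95% counting interval 0.41 to 0.98), whereas resistant 2 differed from it by 0.08 (95% counting interval -0.23 to 0.39). The fit over both gave 0.42 ± 0.45 (95% interval -0.62 to 1.45, edgeR adjusted p = 0.885). Per length, CPT2 was 1.63 times CPT1A in parental 1, 3.01 times in resistant 1 and 2.05 times in resistant 2.

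**Figure D2:**
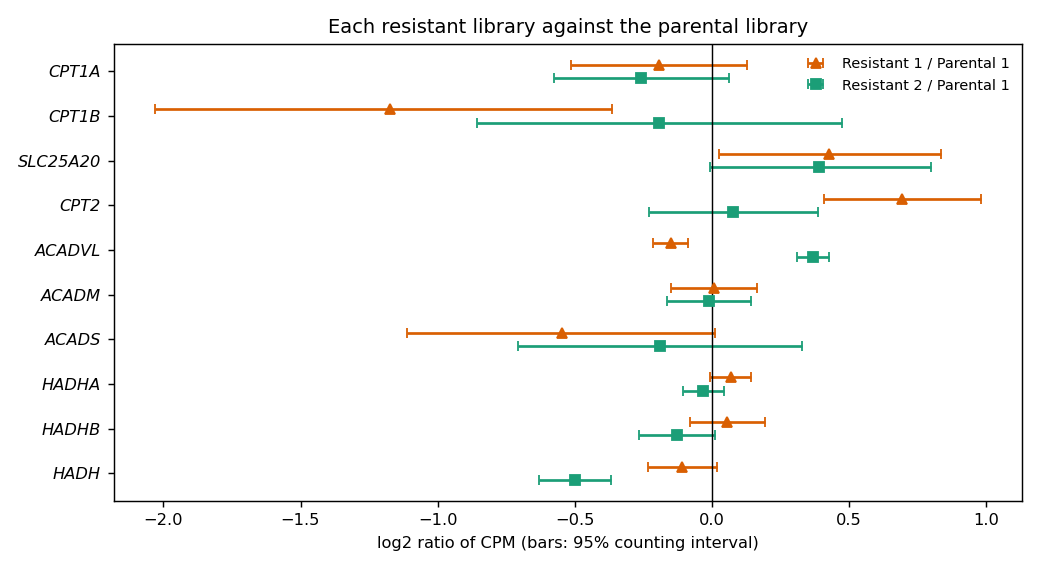
The log2 ratio of CPM of resistant 1 (triangles) and resistant 2 (squares) over parental 1 for each enzyme, with 95% counting intervals as bars. For ACADVL the 2 resistant libraries fall on opposite sides of 0, at -0.15 and 0.37, and for CPT2 resistant 1 lies at 0.69 and resistant 2 at 0.08.

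Of the acyl-CoA dehydrogenases, which take the first oxidation step, the very-long-chain enzyme ACADVL (ENSG00000072778, chr17:7120444-7128592, forward strand) was the most abundant, with 3844 reads in parental 1, 4011 in resistant 1 and 6108 in resistant 2, or 272.5, 245.5 and 351.6 CPM. The parental value lay between the 2 resistant values. Resistant 1 was lower than parental 1 by a log2 ratio of -0.15 (95% counting interval -0.21 to -0.09) and resistant 2 was higher by 0.37 (95% counting interval 0.31 to 0.43). The fit gave 0.13 ± 0.38 (95% interval -0.74 to 1.01, edgeR adjusted p = 0.972). ACADVL shares 2578 bases with DLG4, a synaptic scaffold gene read in the opposite direction. DLG4 had 51, 127 and 265 reads in parental 1, resistant 1 and resistant 2, or 3.62, 7.77 and 15.3 CPM, with a log2 fold change of 1.67 (95% interval 0.34 to 3.0, unadjusted p = 0.0200, edgeR adjusted p = 0.394). Whether the libraries kept the strand is not stated in the sources used here, so reads in the shared stretch may belong to either gene. How many reads fell in that stretch is not known, so its part in the values of ACADVL and of DLG4 was not tested.

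The medium-chain and short-chain dehydrogenases were lower and were not called either. ACADM (ENSG00000117054, chr1:76190036-76253260, forward strand) had 633, 737 and 774 reads, or 44.9, 45.1 and 44.6 CPM, the narrowest spread of the 10 genes. Its fitted log2 fold change was -0.0014 ± 0.34 (95% interval -0.77 to 0.77, edgeR adjusted p = 1.00). ACADM shares 1382 bases with RABGGTB on the same strand, a prenyltransferase subunit gene with 378, 694 and 774 reads, and 1359 bases with a pseudogene of 11, 13 and 20 reads. ACADS, the short-chain enzyme (ENSG00000122971, chr12:121163538-121177811, forward strand), had 63, 50 and 68 reads, or 4.47, 3.06 and 3.91 CPM. Both resistant values were below the parental one, with a log2 fold change of -0.36 ± 0.54 (95% interval -1.59 to 0.88, edgeR adjusted p = 0.930). Within a library the very-long-chain transcript exceeded the medium-chain one per length by 6.76 times in parental 1, 6.06 in resistant 1 and 8.79 in resistant 2. The medium-chain transcript exceeded the short-chain one by 7.48, 11.0 and 8.47 times.

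HADHA and HADHB encode the alpha and beta subunits of the mitochondrial trifunctional protein, a membrane complex that carries out the last 3 steps of the cycle on long chains. The genes lie head to head and are read away from a common stretch. Their promoter windows from RefSeq (GRCh38.p14), each from 250 bases before to 50 bases after the annotated start, are printed because they overlap: HADHA is at chr2:26244583-26244882 on the reverse strand and HADHB at chr2:26244689-26244988 on the forward strand. Both are given 5′ to 3′ on the strand of their own gene, and the capitals mark the 194 bases that both windows hold, so that one capital run is the reverse complement of the other.
HADHA: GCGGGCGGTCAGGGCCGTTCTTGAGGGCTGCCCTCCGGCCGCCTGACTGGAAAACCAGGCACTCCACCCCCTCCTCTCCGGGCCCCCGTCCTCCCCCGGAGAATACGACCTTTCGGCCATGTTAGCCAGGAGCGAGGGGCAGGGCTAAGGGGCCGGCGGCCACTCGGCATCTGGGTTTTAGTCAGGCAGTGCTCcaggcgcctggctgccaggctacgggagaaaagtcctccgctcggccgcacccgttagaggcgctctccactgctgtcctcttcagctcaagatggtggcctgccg
HADHB: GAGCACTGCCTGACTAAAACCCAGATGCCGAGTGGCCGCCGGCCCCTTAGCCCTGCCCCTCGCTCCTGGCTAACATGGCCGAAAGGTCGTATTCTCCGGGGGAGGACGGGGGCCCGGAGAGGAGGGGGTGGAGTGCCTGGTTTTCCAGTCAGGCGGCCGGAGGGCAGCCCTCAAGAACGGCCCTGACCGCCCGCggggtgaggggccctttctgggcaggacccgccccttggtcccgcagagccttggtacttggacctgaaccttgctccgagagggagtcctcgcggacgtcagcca
The first bases of the 2 genes lie 307 bases apart in this annotation. In the hg19 gene models of the deposited table, which take in longer transcripts, the 2 genes share 1557 bases.

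Neither gene of the trifunctional pair changed much between libraries, so their proportion was near constant too. This is not shown to be particular to the pair. ACADM, on chromosome 1, was as steady, at 44.9, 45.1 and 44.6 CPM in parental 1, resistant 1 and resistant 2. With the strand setting unknown, reads in the stretch shared by HADHA and HADHB may belong to either gene. HADHA (ENSG00000084754, chr2:26413504-26467594 in hg19) had 2643 reads in parental 1, 3212 in resistant 1 and 3183 in resistant 2, or 187.4, 196.6 and 183.2 CPM. HADHB (ENSG00000138029, chr2:26466038-26513336 in hg19) had 807, 972 and 910 reads, or 57.2, 59.5 and 52.4 CPM. For both genes resistant 1 was the highest library, resistant 2 the lowest and parental 1 between them. The ratio of HADHA to HADHB per length was 3.11, 3.14 and 3.32 in parental 1, resistant 1 and resistant 2, and 3.02 and 3.04 from the authors' parental and resistant means. The log2 fold change was 0.02 ± 0.35 for HADHA (95% interval -0.77 to 0.81, edgeR adjusted p = 0.997). It was -0.03 ± 0.34 for HADHB (95% interval -0.80 to 0.74, edgeR adjusted p = 0.994).

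HADH, the matrix dehydrogenase of the third step for medium and short chains (ENSG00000138796, chr4:108910870-108956331, forward strand), had 1021 reads in parental 1, 1098 in resistant 1 and 890 in resistant 2, or 72.4, 67.2 and 51.2 CPM. Both resistant values were below the parental one, and the lower of them was resistant 2, at a log2 ratio of -0.50 (95% counting interval -0.63 to -0.37). The fit gave -0.29 ± 0.35 (95% interval -1.09 to 0.51, edgeR adjusted p = 0.903).

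**Figure D3:**
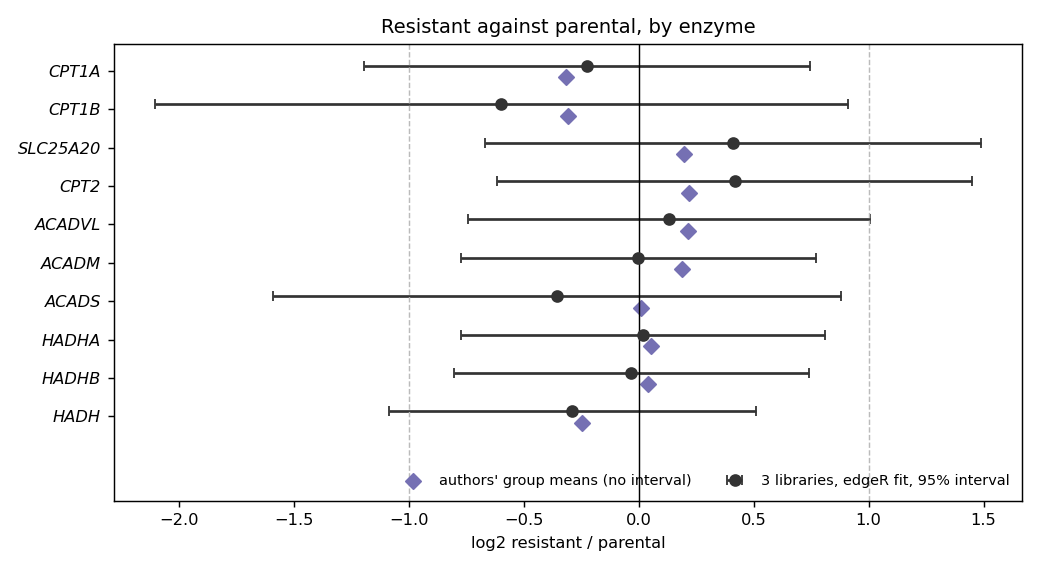
The log2 fold change of resistant over parental cells for each enzyme: circles give the 3-library edgeR fit with its 95% interval, diamonds the ratio of the authors' group means, which has no interval, and dashed lines mark 2-fold. Each interval includes 0, and the diamonds lie between -0.32 and 0.22.

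Counted over the 10 enzymes, 2 were higher in both resistant libraries than in parental 1 (SLC25A20 and CPT2), 4 were lower in both (CPT1A, CPT1B, ACADS and HADH) and 4 had a resistant library on either side. Among all tested genes, 35.2% were higher in both and 34.5% lower in both. The median fitted log2 fold change was -0.02 for the enzymes and 0.03 for all genes. The intervals left out a 2-fold rise for 7 enzymes and a fall to 0.5 times for 6, and for ACADM, HADHA and HADHB they left out both. Those of CPT1B and ACADS, with the fewest reads, were the widest, and CPT1B alone allowed a fold as low as 0.232. Both left out a 2-fold rise with fitted values below 0, at -0.60 and -0.36. No share over all genes stands beside these counts, so they do not show the enzymes to be steadier than other genes.

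The 2 resistant clones often differed from each other by more than counting error. Their ratio had a 95% counting interval that left out 1 for 6 of the 10 enzymes, beside 61.5% of all tested genes. The ratio of resistant 2 to resistant 1 was 1.98 for CPT1B (95% counting interval 1.13 to 3.55), 1.43 for ACADVL (1.38 to 1.49), 0.653 for CPT2 (0.543 to 0.783) and 0.762 for HADH (0.697 to 0.834). It was 0.881 for HADHB and 0.932 for HADHA. These intervals cover counting error only. The median absolute log2 difference between the 2 clones was 0.27 for the enzymes and 0.36 for all genes.

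The authors' group means, in DESeq2-normalised counts, were compared next. None of the 10 enzymes reached a 2-fold ratio, beside 6.36% of the 14630 genes with a mean of at least 10. The log2 ratio of resistant to parental means was 0.22 for CPT2 (169.8 to 198.0), 0.22 for ACADVL (3580 to 4158), 0.20 for SLC25A20 (95 to 109.0) and 0.19 for ACADM (580.2 to 661.8). It was near 0 for HADHA at 0.05, HADHB at 0.04 and ACADS at 0.01. The lowest ratios were those of CPT1A at -0.32 (196.5 to 157.6), CPT1B at -0.31 (28.9 to 23.1) and HADH at -0.25 (1042 to 877.3). Fit and group means had the same sign for 7 of the 10 enzymes. The group means include the 3 libraries of the fit, so this is no independent check.

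Summed over the 10 enzymes, the transcripts took 670.4 CPM in parental 1, 654.5 in resistant 1 and 718.8 in resistant 2. ACADVL alone made up 40.7%, 37.5% and 48.9% of the enzymes' reads in these libraries. Without it the sums were 397.9, 409.0 and 367.2 CPM, with the resistant libraries again on both sides of the parental one.

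In a cancer line, whole chromosome segments can differ between derivatives, so each enzyme was set beside the genes within 5 Mb on either side. In the authors' group means, 8 of the 10 enzymes had the sign of their neighbours' median, beside 68.0% of all genes with a mean of at least 10. CPT1A at -0.32 lay among 198 genes with a median of -0.19, and CPT1B at -0.31 among 43 genes with a median of -0.21. ACADVL at 0.22 lay among 132 genes with a median of 0.17. The exceptions were HADH, at -0.25 among 32 neighbours with a median of 0.06, and ACADS, at 0.01 among 98 neighbours with a median of -0.16. Copy number was not measured, and its part in these values was not tested.

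**Figure D4:**
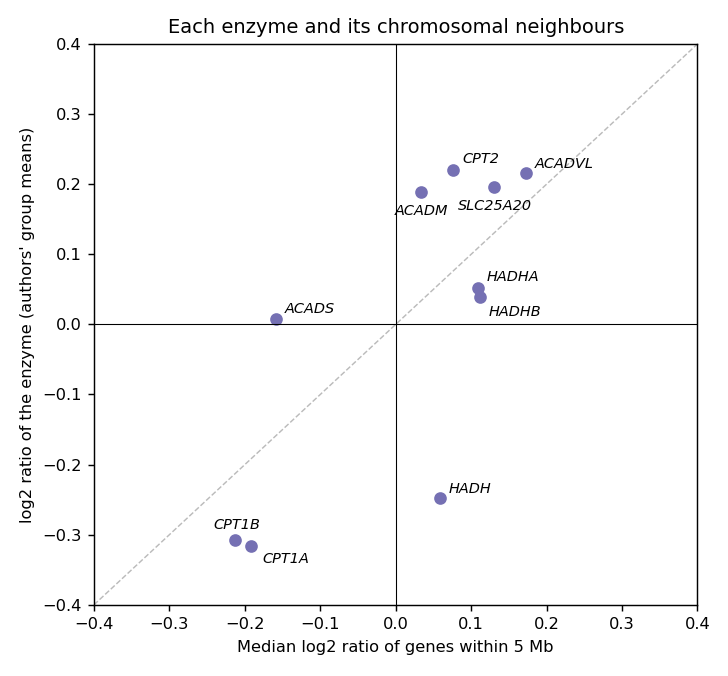
Resistant over parental group means, as deposited by the authors, on the log2 scale for each enzyme (vertical axis) against the median of the genes within 5 Mb on either side (horizontal axis), with equality as a dashed line. HADH, at -0.25 with neighbours at 0.06, lies furthest below the line.

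Promoter windows were listed for 9 of the 10 enzymes, CPT1B being the one without, and gave 11 windows in all. Both strands were searched for the nuclear receptor half-site AGGTCA, for the DR1 element of PPAR factors (that half-site, any base, and the half-site again) and for the extended half-site of the estrogen-related receptors, which contains the half-site. No window of the enzymes held any of the 3, while 13.8%, 0.0228% and 0.353% of all 35116 windows did. These exact letters being absent from 300 bases says nothing about the factors. The enzymes' windows had a median GC content of 65.7%, beside 58.7% for all windows, and a median of 22 CpG dinucleotides beside 14.

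The genes around the cycle were followed in 6 lists of 50 genes, 44 of which passed the count filter. None was called by edgeR at an adjusted p under 0.05, beside 0.525% of all tested genes. An unadjusted p under 0.05 was found for 4 of the 44, 2 in each direction, close to the 9.62% of all tested genes. The fitted change was above 0 for 23 and below 0 for 21, with a median of 0.06 beside 0.03 for all genes. By the authors' group means 5 of 43 were at least 2-fold apart, beside 6.36% of all genes, namely ACSL5, ACADSB and ANGPTL4 upward and FABP4 and PPARGC1B downward.

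Fatty acid activation and carnitine uptake held the largest ratio of group means among these lists, that of ACSL5. This acyl-CoA synthetase gene had 146 reads in parental 1, 801 in resistant 1 and 218 in resistant 2, with authors' means of 85.0 and 356.6 and a log2 ratio of 2.06. Resistant 1 was far above the other libraries, and the fitted log2 fold change was 1.57 (95% interval -0.10 to 3.24, edgeR adjusted p = 0.564). The lowest of the 8 tested genes in this list was the synthetase ACSL3 at -0.23, and the list's median was 0.23. Among the 4 tested acyl-CoA dehydrogenases outside the 10, ACADSB, for short branched chains, had 11, 12 and 41 reads with a fitted change of 0.99 (95% interval -1.05 to 3.02), and ACAD10 was lowest at -0.18. ACADL, the long-chain dehydrogenase, had 0, 0 and 7 reads and was not tested.

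Further steps of the mitochondrial cycle showed no called change. The 7 hydratase, thiolase and auxiliary genes had a median of -0.07, from -0.22 for the thiolase ACAA2 to 0.73 for the isomerase ECI2 (95% interval -0.54 to 1.99). ETFA, which takes the electrons of the acyl-CoA dehydrogenases as a subunit of the electron transfer flavoprotein, had 1725, 1481 and 1119 reads in parental 1, resistant 1 and resistant 2. Its fitted change of -0.66 (95% interval -1.47 to 0.16, edgeR adjusted p = 0.637) was the lowest of the 3 electron transfer genes. ETFDH, the oxidoreductase that passes these electrons on to ubiquinone, was highest at 0.56 (95% interval -0.47 to 1.58).

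The peroxisomal pathway, which shortens very long and branched chains, had 4 tested genes above and 4 below 0. ACOX3, an acyl-CoA oxidase, had 104 reads in parental 1, 263 in resistant 1 and 310 in resistant 2, with a log2 fold change of 1.20 (95% interval 0.22 to 2.19, unadjusted p = 0.0225, edgeR adjusted p = 0.411). HSD17B4, the D-bifunctional protein, went the other way with 1887, 1296 and 1191 reads and a value of -0.86 (95% interval -1.61 to -0.10, unadjusted p = 0.0313, edgeR adjusted p = 0.453). Both resistant libraries were on the same side of the parental one for each gene, but neither passed the adjustment over all genes.

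The regulators and PPAR targets were split 7 to 7, with a median of 0.04. FABP4, a fatty acid binding protein under PPARG control, had 1770 reads in parental 1, 62 in resistant 1 and 526 in resistant 2, and a fitted value of -2.88 (95% interval -4.80 to -0.96, unadjusted p = 0.00828, edgeR adjusted p = 0.271). ANGPTL4, another PPAR target and an inhibitor of lipoprotein lipase, had 6, 41 and 91 reads and a value of 3.17 (95% interval 1.25 to 5.08, unadjusted p = 0.00491, edgeR adjusted p = 0.218). It was named after its values were seen, as was PPARGC1B. FABP4 was named as the lowest of its list, so the opposite signs of these 2 PPAR targets follow from how they were picked. PPARGC1A, a coactivator of the oxidative program, had 0 reads in parental 1, 0 in resistant 1 and 31 in resistant 2, so its signal came from 1 clone, and the list's median was also 0.04 with this gene at its bound. OXCT1, the ketone-using enzyme on which the study centres, had 523, 701 and 753 reads, with a log2 fold change of 0.22 (95% interval -0.56 to 1.00, edgeR adjusted p = 0.933), and the authors' means gave -0.12.

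**Figure D5:**
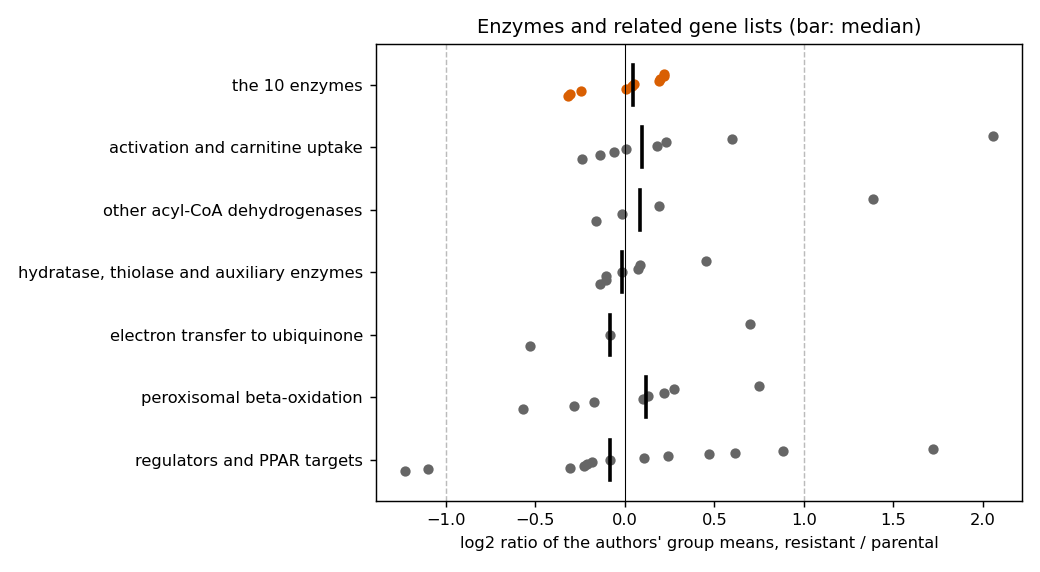
Resistant over parental group means, as deposited by the authors, on the log2 scale for each gene with a mean of at least 10, in the 10 enzymes and the 6 related lists, with the median as a bar and dashed lines at 2-fold. The enzymes lie between -0.32 and 0.22, while ACSL5 reaches 2.06 in the activation list.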

How the data were processed

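The authors deposited 1 table in hg19, by the submitters' processing notes, with raw read counts per gene and FPKM for each library. The aligner, counter, annotation and strand setting are not given in the sources used here. FPKM equalled the count divided by gene length and library total for 100% of values, within 0.1%. The deposited group means are a signal, the mean of DESeq2-normalised counts. The table also holds the authors' own fold changes and p-values, which were not used. A further 6 per-sample columns had no matching label and were not used.

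The counts were fitted in edgeR 4.0.16 (R 4.3.3) with TMM factors of 0.974 to 1.03, quasi-likelihood F tests and Benjamini-Hochberg adjustment over 14846 genes with at least 30 reads in all, and the script was tested on simulated data. CPM used TMM-scaled totals. Counting intervals were exact at 95%. The log2 ratio of group means used a pseudocount of 1. Alternatives were DESeq2 1.42.0, other scalings and filters, and omitted resistant libraries. Summaries used Python 3.11.15. The enzymes and lists were chosen with earlier results of these data known. Of each list the highest and lowest fold change and any called gene were named, with all 10 enzymes, genes overlapping them and OXCT1. CPT1C was named in addition, as a further CPT1 gene, after its values were seen.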

Additional observations from a re-analysis of the deposited data

How the results depend on the processing

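No enzyme tested was called, at an adjusted or unadjusted p under 0.05, under the 5 alternatives that give a test (DESeq2, DESeq2's size factors, library totals only, no count filter, and at least 300 reads). CPT1B and ACADS had too few reads for the last of these and were not tested in it. Of the 48 fold changes of single enzymes recomputed in the 5 alternatives, 45 kept their sign, and the lowest adjusted p was 0.874. Those of ACADM became 0.055 and of HADHB 0.025 with library totals only, and that of ACADM 0.024 with at least 300 reads. Leaving out a resistant library or subtracting the neighbours within 5 Mb gave values with no test. The sign changed in 4 of 20 values with a library left out, with ACADVL at -0.15, HADHB at 0.06 and ACADM at 0.0074 without resistant 2, and HADHA at -0.03 without resistant 1. It changed in 3 of 10 with the neighbours subtracted, for ACADVL at -0.08, CPT1A at 0.06 and HADHA at -0.06. The enzymes' median fold change, -0.02, was 0.0402 with totals only, 0.0345 with at least 300 reads, -0.0797 to -0.0498 without 1 resistant library, and -0.0701 after subtracting the neighbours within 5 Mb, a setting chosen after seeing the data. That of the group means, 0.05, was 0.12 for genes with a mean of at least 50 and -0.0069 after the neighbours were subtracted. CPT1B and ACADS did not pass the filters of 300 reads and of a mean of 50. The medians under these 2 filters therefore cover only the other enzymes and are not like for like. The count of called genes, 78, was 145 with DESeq2's size factors, 219 with totals only, 534 without a count filter, 153 with at least 300 reads and 248 by DESeq2. Of the related lists, 4 genes (ACSL5, ANGPTL4, FABP4 and PPARGC1A) were called without a filter, among the 534. With at least 300 reads 1 (FABP4) was called, among the 153. The number of genes tested in these settings is not given here. No share over all genes stands beside these counts, and nothing about the lists is read from them. PPARGC1A had reads in resistant 2 only. Apart from the 2 enzymes lost to these filters, the cause of the shifts was not tested. No paired analysis was made, since the labels name no pairing between parental and resistant clones. With 1 parental library, left-out fits could omit only resistant libraries, and the few reads of CPT1B and ACADS limit what could be seen there.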
